A study of Mus musculus with 12 samples.

Results

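This section describes 9 mouse genes whose products remove R-loops, taken by name: the hybrid nuclease genes Rnaseh1, Rnaseh2a, Rnaseh2b and Rnaseh2c, the helicase genes Dhx9, Ddx21 and Aqr, the topoisomerase gene Top1 and the exoribonuclease gene Xrn2. They are 9 of 21887 protein-coding genes on the nuclear chromosomes of the RefSeq gene table (GRCm38.p6). A peak was counted at a gene when it overlapped the gene body with 1 kb on both sides by at least 1 bp. By this rule the 9 genes held 40 of the 28717 peaks of the HEPA1-6 list and 15 of the 14908 peaks of the liver list.

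The peaks come from DRIP, in which fragments of genomic DNA that carry RNA-DNA hybrids are pulled down with the antibody S9.6, in 12 libraries that form 6 groups of 2. HEPA1-6, a mouse hepatoma cell line, and liver of C57/Bl6 mice each gave an immunoprecipitate, an immunoprecipitate with RNase H1 and an input. Every group is labelled wild type, with no treatment and with hepatocyte as its cell type, and neither the age nor the number of the mice is stated. The deposited data used here were 1 peak list for each source. Its peak names name merged immunoprecipitates and an input, but which libraries were merged is not given in the sources used here. Replicate spread is therefore unknown, and no difference between the sources could be tested. Values with RNase H1 were not analysed here, so the part of these signals that the enzyme removes is unknown, as is the sequencing depth. Whole liver holds several cell types, and a hybrid present in few cells cannot be told apart from a weaker one in many. Peaks lay at 7 of 20 hepatocyte marker genes in HEPA1-6 (35%) and at 6 in liver (30%), near the shares over all protein-coding genes (42% and 29.7%). In the same order, they lay at 9 (90%) and 8 (80%) of 10 marker genes of cycling cells, and at 4 (26.7%) and 3 (20%) of 15 marker genes of other liver cells.

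An R-loop forms when a transcript pairs with its DNA template and leaves the other DNA strand unpaired. Cells limit R-loops by cutting the RNA of the hybrid, by unwinding the hybrid, by relaxing the negative supercoils that favour its formation behind RNA polymerase, and by degrading the transcript where transcription ends. RNase H1 and the trimeric RNase H2 act by the first route, DHX9, DDX21 and aquarius by the second, topoisomerase 1 by the third and XRN2 by the last. The genes for these proteins are themselves transcribed and can carry R-loops. The peaks described here are S9.6 signal at these genes, and they say nothing of the amount or activity of the proteins.

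A HEPA1-6 peak was found at 8 of the 9 genes, and a liver peak at 7. The share over all protein-coding genes was 42% in the HEPA1-6 list and 29.7% in the liver list. Among genes with a HEPA1-6 peak, 66.1% also held a liver peak, and 7 of the 8 genes did here. The share of genes with a peak differed between length classes, and the median length of the 9 genes was 31933 bp against 17169 bp over all protein-coding genes. Of the genes under 10 kb, Rnaseh1 and Rnaseh2c, both held a HEPA1-6 peak and 1 a liver peak, where the shares over all genes of this length were 30.1% and 21.7%. Rnaseh2a and Ddx21, of 10 to 30 kb, both held a peak in each list, with shares of 49% and 33% at that length. Of the 5 genes of 30 to 100 kb, 4 held a peak in each list, with shares of 51.5% and 35.4%. Of the 9 genes, Rnaseh2b thus held no peak, Rnaseh1 a HEPA1-6 peak only, and the other 7 a peak in each list. These counts include Rnaseh2c, whose peaks also extend over a neighbouring gene, Kat5. Leaving out every peak over another protein-coding gene lowered the totals to 7 for HEPA1-6 and 6 for liver. The shares over all protein-coding genes were not recomputed in this way. The 6 still include Rnaseh2a, whose only liver peak is on the strand opposite to the gene.

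**Figure D1:**
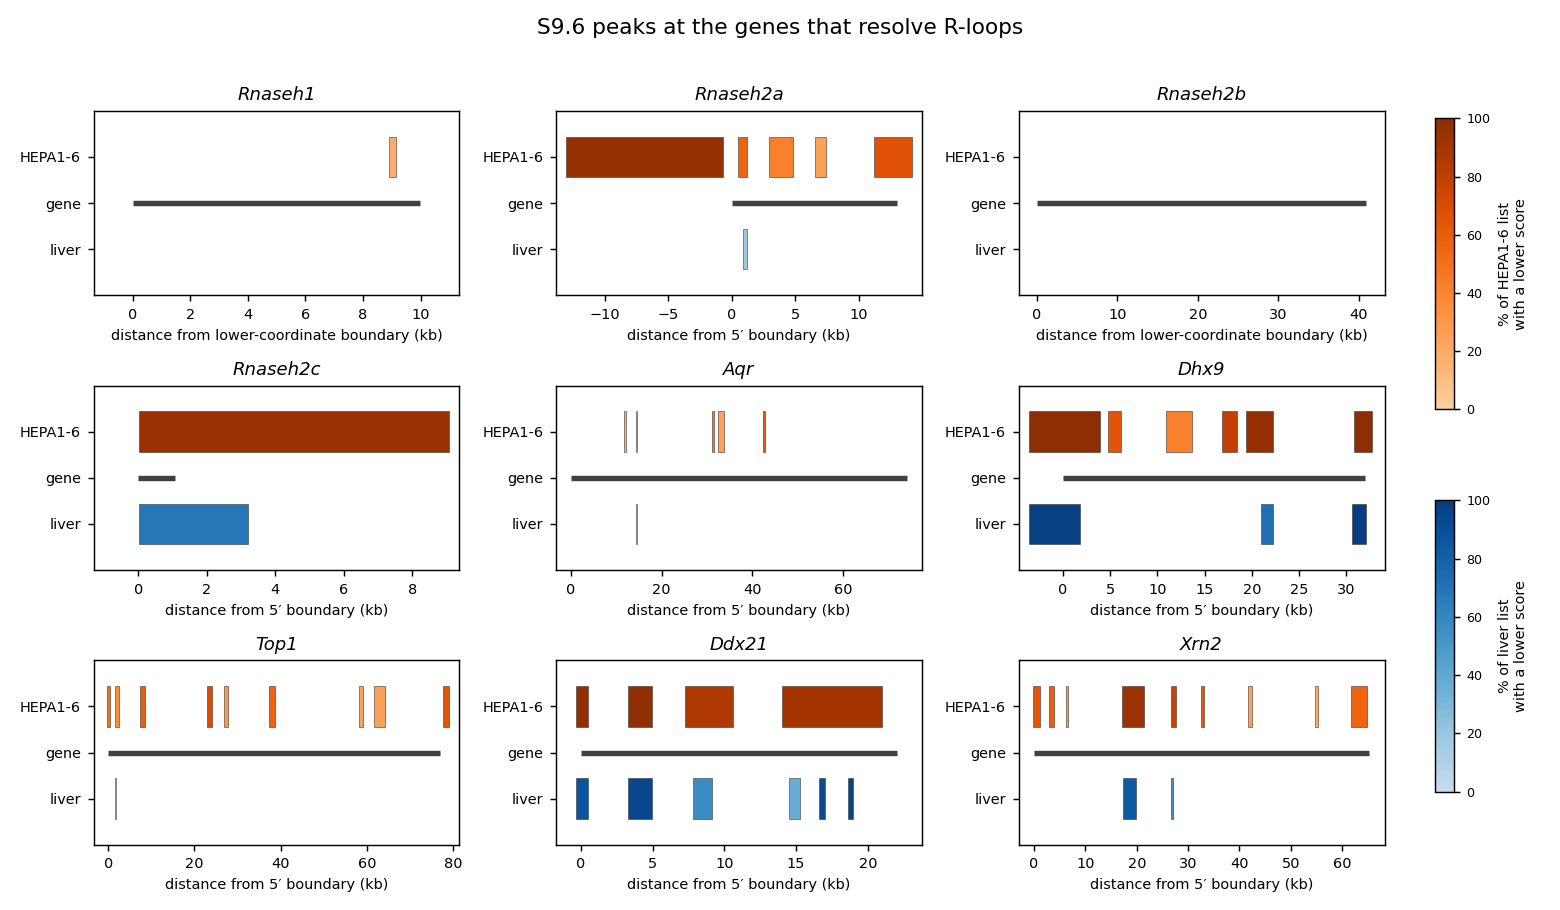
Peaks of the HEPA1-6 list (orange, above) and the liver list (blue, below) along each gene body (black bar), by distance in kb from the 5′ boundary of the gene, or from its lower-coordinate boundary for Rnaseh1 and Rnaseh2b. Darker boxes have a higher score within their list; Dhx9 and Ddx21 hold dark boxes in both lists, Top1 and Xrn2 hold 9 HEPA1-6 peaks each, and Rnaseh2b holds none.

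Rnaseh1 encodes the monomeric enzyme that degrades the RNA strand of hybrids in the nucleus and in mitochondria. The gene (chr12:28649601-28659592) held a single HEPA1-6 peak of 252 bp, chr12:28658513-28658764, with a score of 15. Of all HEPA1-6 peaks, 18.6% scored lower. The score is the authors' value per peak, its scale is not stated, and it is compared here only within a list, where the medians were 21 in HEPA1-6 and 22 in liver. No liver peak lay at Rnaseh1; as the depth is unknown, this does not show that the signal is absent.

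RNase H2 consists of a catalytic subunit A and the accessory subunits B and C, and also removes single ribonucleotides from DNA. Its 3 genes differed widely. Rnaseh2a (chr8:84956610-84969598, minus strand) held 5 HEPA1-6 peaks with scores of 27, 16, 19, 23 and 80 in order of coordinate, and 1 liver peak with a score of 16. The peak with the score of 80 lay wholly outside the gene body: it was 12284 bp wide, had its nearer edge at -0.729 kb from the 5′ boundary of Rnaseh2a (negative values are upstream), and extended over Prdx2, a peroxiredoxin gene, and Junb, an AP-1 transcription factor gene. Another of the 5 peaks overlapped Rtbdn, the gene downstream. Without peaks that touch another protein-coding gene, Rnaseh2a kept 3 of its 5 HEPA1-6 peaks. The liver peak (chr8:84968434-84968690) lay within the HEPA1-6 peak chr8:84968409-84969101. Both were on the plus strand, opposite to Rnaseh2a.

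Rnaseh2b (chr14:62332068-62372996), at 40.9 kb the longest of the 3 subunit genes, held no peak in either list. It also held none with flanks of 5 kb. Rnaseh2c (chr19:5601873-5602959, plus strand) is the shortest of the 9 genes at 1087 bp, and 97.6% of it was covered in both lists. The covering peaks reached far beyond it: the HEPA1-6 peak was 9052 bp wide (score 69) and the liver peak 3173 bp (score 28). Both ran on into Kat5, the gene of the TIP60 acetyltransferase, and both had the minus strand, which is that of Kat5 and not of Rnaseh2c. The signal of Rnaseh2c therefore cannot be told apart from that of Kat5. With peaks over another protein-coding gene left out, Rnaseh2c had no peak in either list.

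The peaks at Rnaseh2c started at the same base in both lists, position 5601899, inside the promoter window of the RefSeq table. The bases around this edge (chr19:5601884-5601911, plus strand, GRCm38.p6) are shown because they hold a HindIII recognition hexamer, in capitals, whose second base is the first base of both peaks:
Rnaseh2c peak start: tgcctgaaccttacAAGCTTctgagatg
The DRIP protocol cited in the labels (Sanz and Chedin) cuts genomic DNA with a mixture of HindIII, EcoRI, BsrGI, XbaI and SspI before immunoprecipitation; which enzymes were used here is not given in the sources used here. Over all peaks, 840 HEPA1-6 edges fell within promoter windows, and 454 of these (54.0%, 95% Wilson interval 50.7 to 57.4%) had 1 of the 5 hexamers within 10 bp. Searched were AAGCTT for HindIII, GAATTC for EcoRI, TGTACA for BsrGI, TCTAGA for XbaI and AATATT for SspI, each of which is its own reverse complement. At 40 bp outside the peak this was so for 5 of 775 positions (0.645%), and at 40 bp inside for 1 of 899 (0.111%). Liver edges had a hexamer in 334 of 778 cases (42.9%, 39.5 to 46.4%), against 6 of 719 positions outside (0.834%) and 0 of 837 inside, where the limit that 3 counts give is 0.358% and the upper bound of the Wilson interval is 0.457%. The start of the Rnaseh2c peaks was the only edge at the 9 genes inside a promoter window. How far restriction sites set the widths and shared edges of the other peaks at these genes was not tested.

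**Figure D2:**
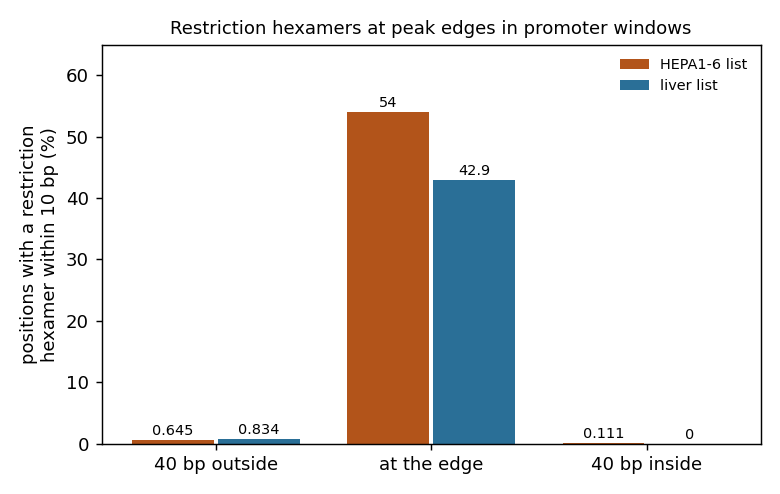
Share of positions with a restriction hexamer within 10 bp (%), for positions 40 bp outside a peak, at its edge and 40 bp inside, over all peaks whose position falls in a promoter window. Bars are the HEPA1-6 list (orange) and the liver list (blue); 54.0% and 42.9% of edges had a hexamer, against under 1% of positions on either side.

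Dhx9 encodes RNA helicase A, which unwinds RNA-DNA hybrids and structured RNA. It carried the highest-scoring peaks of the 9 genes in both lists. The gene (chr1:153455756-153487688, minus strand) held 6 HEPA1-6 peaks with scores of 362, 88, 34, 19, 26 and 308, running from the 3′ to the 5′ end, and 3 liver peaks with scores of 230, 30 and 135 in the same order. In each list the highest scores were at the ends of the gene. The 3′ peak (chr1:153454951-153456930 in HEPA1-6, chr1:153455588-153457103 in liver) scored above 99.7% of the HEPA1-6 list and 99.3% of the liver list. The 5′ peak (chr1:153483807-153491286 in HEPA1-6, chr1:153485860-153491286 in liver) scored above 99.7% and 98.7%, and reached upstream to -3.60 kb from the 5′ boundary in both. Peaks covered 42.1% of the Dhx9 body in HEPA1-6 and 14.2% in liver. Of 5077 protein-coding genes of 30 to 100 kb, 3.62% and 3.82% were covered as much in the respective list.

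Ddx21 encodes a nucleolar RNA helicase of ribosomal RNA production that also unwinds R-loops. The gene (chr10:62580247-62602298, minus strand) held 4 HEPA1-6 peaks with scores of 49, 41, 159 and 139 from the 3′ to the 5′ end. In liver it held 6 peaks, with scores of 73, 51, 19, 24, 61 and 43 in the same order. Of 6456 protein-coding genes of 10 to 30 kb, 22 (0.341%) held as many liver peaks. The higher number of liver peaks did not mean more covered bases: 3 of them lay inside the widest HEPA1-6 peak (6957 bp), and peaks covered 56.9% of the gene body in HEPA1-6 and 22.6% in liver. The 2 intervals nearest the 5′ end, chr10:62597309-62599008 and chr10:62601777-62602616, were identical in both lists. At the second of these, which lies over the gene start, the strand was minus in HEPA1-6 and plus in liver.

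Aqr encodes aquarius, a helicase of the spliceosome that binds introns and unwinds hybrids. It carried the weakest signal among the 3 helicase genes. The gene (chr2:114101161-114175339, minus strand) held 5 HEPA1-6 peaks with scores of 25, 16, 20, 13 and 15 from the 3′ to the 5′ end, and 1 liver peak with a score of 14. All of them lay inside the gene, between 11.7 and 42.7 kb from its 5′ boundary, and neither end held a peak. They were narrow, 257 to 1238 bp in HEPA1-6 and 247 bp in liver, and covered 3.27% and 0.333% of the gene body. The liver peak (chr2:114160701-114160947) lay within the HEPA1-6 peak with the lowest score, chr2:114160699-114160955.

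Top1 encodes topoisomerase 1, which relaxes supercoils around the transcribing polymerase. The gene (chr2:160645897-160722764, plus strand) held 9 HEPA1-6 peaks along its whole length, with scores of 21, 18, 24, 28, 17, 23, 16, 16 and 26 from the 5′ to the 3′ end. Of 5077 genes of 30 to 100 kb, 5.61% held as many. None of the 9 stood out, as the score of 28 was above 68.8% of the list. They covered 12.5% of the gene body. In liver there was 1 peak of 365 bp (chr2:160647441-160647805) with a score of 13, which was above 1.68% of the list. It lay 1.54 to 1.91 kb downstream of the 5′ boundary, within the second HEPA1-6 peak. The last HEPA1-6 peak lay past the 3′ boundary, 77.6 to 79.1 kb from the 5′ boundary, in the lncRNA gene Gm52567. This peak was on the plus strand, that of Top1, whereas Gm52567 is on the minus strand.

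Xrn2 encodes the nuclear 5′-to-3′ exoribonuclease that degrades the RNA left on the polymerase after cleavage at the poly(A) site. The gene (chr2:147012755-147078000, plus strand) also held 9 HEPA1-6 peaks, with scores of 26, 24, 17, 62, 32, 26, 16, 15 and 23 from the 5′ to the 3′ end. The highest score lay inside the gene, 17.2 to 21.4 kb from the 5′ boundary (chr2:147029921-147034135), above 93.8% of the list. Both liver peaks of Xrn2, with scores of 39 and 24, lay at this peak and at the next one. The higher was above 84.3% of the liver list. Peaks covered 19.9% of the gene body in HEPA1-6 and 4.18% in liver.

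**Figure D3:**
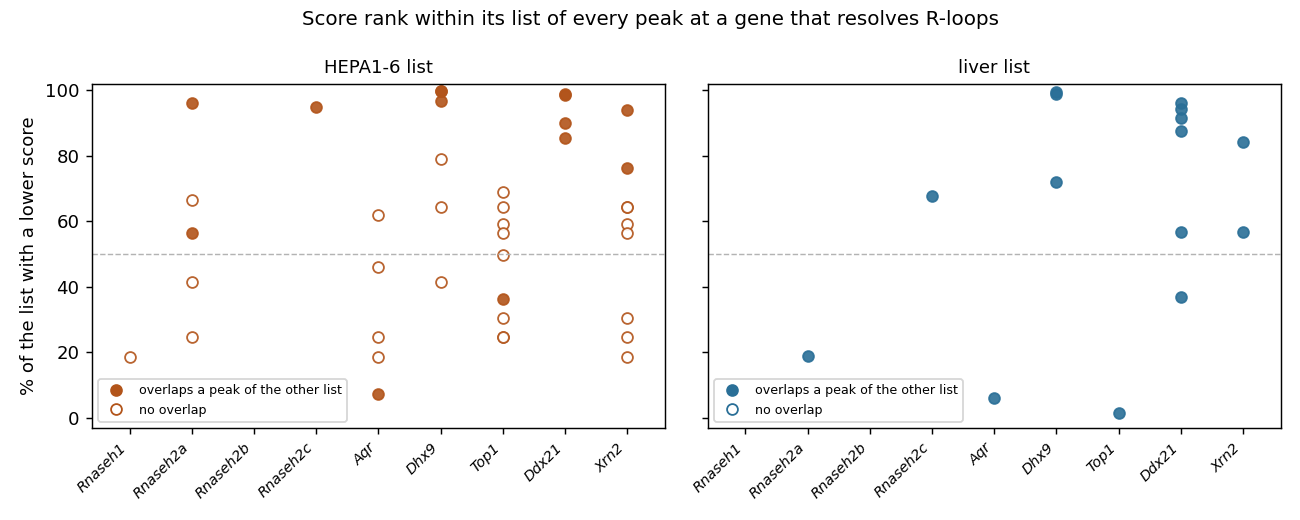
Score rank of each peak at the 9 genes, as the percentage of peaks of the same list with a lower score, with the HEPA1-6 list on the left and the liver list on the right; filled points overlap a peak of the other list and the dashed line marks 50%. Dhx9 and Ddx21 hold points near the top in both lists, while the liver peaks of Rnaseh2a, Aqr and Top1 lie below 20%.

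Set side by side, the covered share of the gene body in HEPA1-6 was highest at Rnaseh2c (97.6%), followed by Ddx21 (56.9%), Dhx9 (42.1%), Rnaseh2a (39.6%), Xrn2 (19.9%), Top1 (12.5%), Aqr (3.27%), Rnaseh1 (2.52%) and Rnaseh2b (0%). The Rnaseh2c value comes from peaks that run on into Kat5 and have its strand. It cannot be told apart from the signal of Kat5, and no peak was left at Rnaseh2c without them. The liver order differed in the place of Rnaseh2a, which stood at 1.98%, below Xrn2 (4.18%). The Rnaseh2a values are in part signal on the plus strand, opposite to the gene. Of its 5149 covered bases in HEPA1-6, 1776 lay in the plus-strand peak over Rtbdn and 693 in another plus-strand peak. Its whole liver value came from a single plus-strand peak. With 1 list per source, no pair of neighbours in these orders could be tested. The median over the 9 genes was 19.9% in HEPA1-6 and 1.98% in liver, and over all protein-coding genes it was 0% in both. Among protein-coding genes with a peak in the respective list, the medians were 15.4% and 5.84%. In total, peaks covered 57504 of 335275 bp of the 9 gene bodies in HEPA1-6 (17.2%) and 14179 bp in liver (4.23%). With the 1 kb flanks, 62630 and 16665 bp were covered. The genes with the coverage most like that of Rnaseh2c, by the distance in percentage points over the 2 lists and among protein-coding genes of 0.5 to 2 times its length, were Ier2 (100% and 97.8%), Gadd45g (100% and 98.3%) and Id1 (99.4% in both). This match rests on the peaks that Rnaseh2c shares with Kat5.

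**Figure D4:**
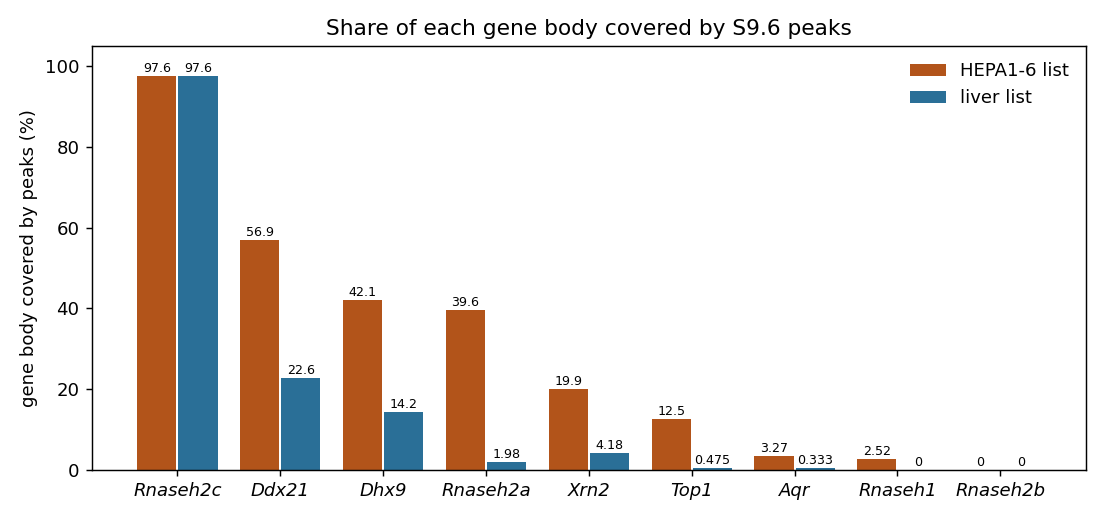
Percentage of each gene body covered by peaks of the HEPA1-6 list (orange) and of the liver list (blue), with genes ordered by the HEPA1-6 value. The bars are single values without error, since there is 1 list per source. Rnaseh2c is covered to 97.6% in both, by peaks that run on into Kat5 on its strand. At Rnaseh2a, part of the HEPA1-6 bar and the whole liver bar come from peaks on the strand opposite to the gene. At the other genes with a peak the HEPA1-6 bar is the higher.

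The lists were then compared peak by peak at these genes. All 15 liver peaks overlapped a HEPA1-6 peak, where 76.0% of all nuclear liver peaks did. Of the 40 HEPA1-6 peaks, 14 (35.0%) overlapped a liver peak, close to the 31.8% of the whole list. The 14 had a median score of 65.5 (range 13 to 362) and the other 26 a median of 20.5 (range 15 to 34). Among the 14 is the Rnaseh2a peak with a score of 80, which lies outside the gene body over Prdx2 and Junb. The liver peak that it overlaps is not among the 15. Also among the 14 is the Rnaseh2c peak with a score of 69, which cannot be told apart from the signal of Kat5. The median was not recomputed without these peaks. No HEPA1-6 peak above a score of 34 at these genes was without a liver peak. The scores of overlapping and other peaks were not compared over the whole list, so this split is not shown to be particular to these genes. At the genes with a liver peak, 96.2% (Dhx9) to 100% of the liver-covered bases of the gene body also lay in a HEPA1-6 peak. Fewer peaks met an overlap of 50% of both peaks, namely 6 of the 14 HEPA1-6 peaks and 6 of the 15 liver peaks. At Top1, for example, the liver peak was 365 bp wide and the HEPA1-6 peak around it 1065 bp. Of the 15 overlapping pairs, 5 (33.3%) had an identical start or end and 2 (13.3%) had both, and over 11430 pairs of the whole lists these shares were 46.2% and 6.31%. Halving each list by score removed all liver peaks of Rnaseh2a, Aqr and Top1, so that 4 of the 9 genes held a liver peak, where 20.7% of all protein-coding genes did. In the higher-scoring 50% of the HEPA1-6 list, 7 of the 9 genes held a peak, against 33.5% of protein-coding genes.

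All 55 peaks had a strand, which the authors assigned in a way not given in the sources used here. Whether gene annotation entered that assignment is unknown, so agreement with the strand of the gene may be built in. At the 7 genes of known strand, 34 of 35 HEPA1-6 peaks that overlapped no other gene lay on the strand of the gene, as did 12 of 14 liver peaks. Over all peaks on a single protein-coding gene these shares were 93.9% (95% Wilson interval 93.5 to 94.3%) and 91.8% (91.2 to 92.4%). The exceptions were the pair at the 5′ end of Rnaseh2a and the liver peak at the start of Ddx21. In HEPA1-6 the former lay 0.497 to 1.189 kb inside the 5′ boundary of Rnaseh2a. Its plus strand is that of Prdx2, which begins past that boundary at chr8:84969622. The promoter window of Rnaseh2a lies further inside the gene. Where a HEPA1-6 peak also overlapped another gene, 1 of 4 was on the strand of the R-loop gene.

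RefSeq promoter windows (250 bases before to 50 after a start, GRCm38.p6) were available for 7 of the 9 genes, Rnaseh1 and Rnaseh2b being without an entry. A HEPA1-6 peak overlapped the window at 6 of these 7 genes, Aqr being the exception, where 20.4% of 17492 protein-coding genes had such an overlap. A liver peak overlapped it at 3 of 7, namely Dhx9, Ddx21 and Rnaseh2c, where 13.5% of genes had one. At Rnaseh2c the overlap was 24 of 300 bases, all after the start. The window of Rnaseh2a (chr8:84966027-84966326) lay inside its gene body.

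The 250 bases before the start are printed for Dhx9 and Ddx21, which lay wholly inside a peak in both lists, for Top1 and Xrn2, which lay inside a peak in HEPA1-6 only, and for Aqr, which had no peak there. Each reads 5′ to 3′ on the strand of the gene, with runs of 4 or more G or C in capitals, at chr1:153487661-153487910 (minus), chr10:62602299-62602548 (minus), chr2:160645647-160645896 (plus), chr2:147012749-147012998 (plus) and chr2:114175340-114175589 (minus), respectively:
Dhx9: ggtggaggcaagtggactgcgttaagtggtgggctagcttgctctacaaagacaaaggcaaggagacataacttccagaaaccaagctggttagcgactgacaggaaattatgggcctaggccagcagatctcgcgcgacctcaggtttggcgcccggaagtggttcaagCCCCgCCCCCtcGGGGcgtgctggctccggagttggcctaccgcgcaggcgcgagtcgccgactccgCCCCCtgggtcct
Ddx21: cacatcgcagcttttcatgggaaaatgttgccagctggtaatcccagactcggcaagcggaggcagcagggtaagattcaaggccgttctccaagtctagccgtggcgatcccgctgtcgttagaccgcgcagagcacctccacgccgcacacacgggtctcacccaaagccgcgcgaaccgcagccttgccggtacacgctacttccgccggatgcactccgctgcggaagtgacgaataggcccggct
Top1: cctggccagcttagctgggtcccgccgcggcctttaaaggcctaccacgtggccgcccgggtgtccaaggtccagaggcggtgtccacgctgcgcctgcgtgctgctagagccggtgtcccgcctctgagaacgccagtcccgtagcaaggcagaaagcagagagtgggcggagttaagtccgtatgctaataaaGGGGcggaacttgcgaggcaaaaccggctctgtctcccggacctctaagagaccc
Xrn2: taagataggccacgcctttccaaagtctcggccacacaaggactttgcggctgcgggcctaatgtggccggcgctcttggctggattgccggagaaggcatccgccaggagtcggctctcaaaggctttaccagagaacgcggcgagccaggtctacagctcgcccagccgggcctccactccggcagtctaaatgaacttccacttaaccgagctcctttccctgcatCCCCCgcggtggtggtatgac
Aqr: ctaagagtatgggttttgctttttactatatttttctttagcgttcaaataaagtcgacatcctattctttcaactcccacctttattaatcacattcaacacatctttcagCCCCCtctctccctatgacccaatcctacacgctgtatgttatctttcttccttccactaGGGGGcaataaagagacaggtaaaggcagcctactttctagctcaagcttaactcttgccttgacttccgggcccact
GC content was 62.0% at Dhx9, 61.6% at Ddx21, 63.6% at Top1, 60.8% at Xrn2 and 42% at Aqr. At the genes whose sequence is not printed, it was 57.6% at Rnaseh2a and 49.2% at Rnaseh2c, both of which also had a HEPA1-6 peak on the window. The median over 21263 windows of protein-coding genes was 55.6% (interquartile range 47.2 to 64.0%). Over all protein-coding genes, the median was 61.6% with a HEPA1-6 peak on the window and 53.6% without, so that Rnaseh2c, with its short overlap, lay below the median of genes without. GC skew, the excess of G over C as a share of both on the strand of the gene, was 0.058 at Dhx9, -0.091 at Ddx21, 0.019 at Top1, -0.079 at Xrn2, -0.083 at Rnaseh2a, 0.057 at Rnaseh2c and -0.35 at Aqr. The median over all windows was 0.0061, and 1.65% of windows had a lower skew than Aqr. A run of GGGG on either strand was present in 6 of the 7 windows, Ddx21 being without, and in 85.3% of all windows, so that these runs did not set the genes apart. A run of letters is a description of the sequence and not a binding site.

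Other genes of the R-loop pathway were taken from a list of 43, all of them found in the gene table. Some of them, such as the partners of aquarius, were listed as partners of an R-loop factor. A HEPA1-6 peak lay at 40 of the 43 (93.0%) and a liver peak at 29 (67.4%), all 29 of which also held a HEPA1-6 peak. The shares over all protein-coding genes were 42% and 29.7%. With no flank, 40 of the 43 held a HEPA1-6 peak and 27 a liver peak. When the midpoint of the peak had to lie in the gene or its flanks, 39 and 25 did. Peaks over another protein-coding gene were not left out for the 43. The median length of the 43 was 33585 bp, against 17169 bp over all protein-coding genes. At 30 to 100 kb, 18 of 19 held a HEPA1-6 peak and 10 a liver peak, against 51.5% and 35.4% of all such genes. At 10 to 30 kb, 13 of 13 and 10 did (49% and 33%), and under 10 kb 6 of 7 in each list (30.1% and 21.7%). The median covered share of the 43 was 8.65% in HEPA1-6 and 1.33% in liver. Over all protein-coding genes it was 0% in both lists, and over those with a peak in the respective list 15.4% and 5.84%. Other RNA helicases held a HEPA1-6 peak at 10 of 10 genes and a liver peak at 9. Endonuclease and repair genes held a HEPA1-6 peak at 8 of 8 and a liver peak at 4, and DNA helicase genes at 5 and 3 of 7. Other topoisomerase genes, including the TOP3B partner Tdrd3, held one at 6 and 4 of 6, mRNA packaging and export genes at 7 and 6 of 8, and partners of aquarius at 4 and 3 of 4. The same 3 genes had the highest-scoring peak in each list: Thoc6, of the THO complex that packages nascent mRNA, scored 231 in HEPA1-6 and 116 in liver, the splicing factor gene Srsf1 scored 176 and 79, and the helicase gene Ddx5 scored 152 and 65. The highest-scoring peak of Dhx9 (362 in HEPA1-6 and 230 in liver) was above that of Thoc6 in the HEPA1-6 list and in the liver list, while 4 of its 6 HEPA1-6 peaks and 1 of its 3 liver peaks scored below that of Ddx5. No peak was found in either list at Fancm, Pif1 or Thoc2.

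**Figure D5:**
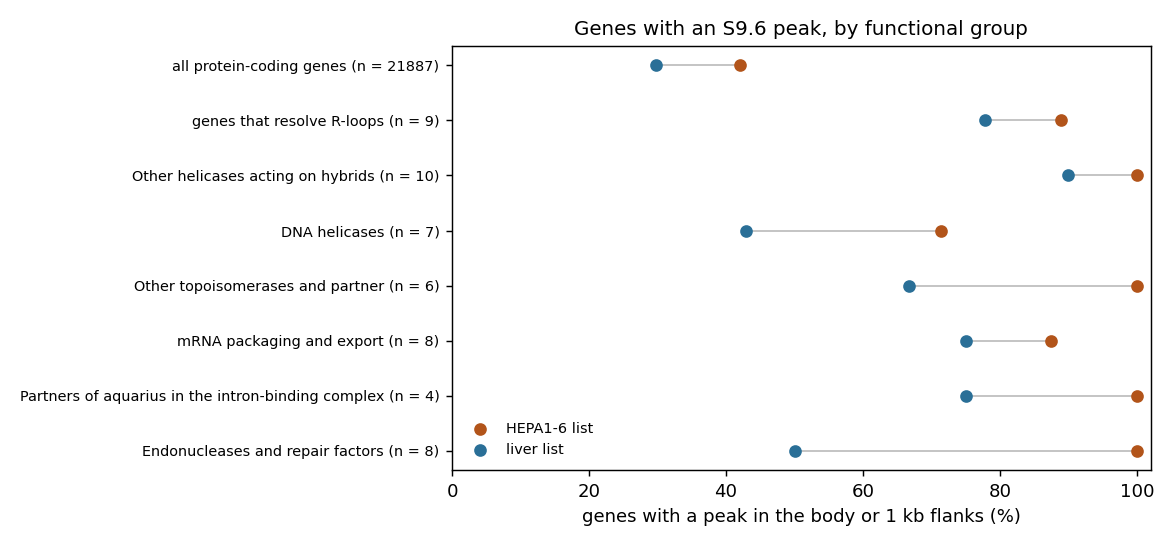
Percentage of genes with a peak in the gene body or its 1 kb flanks, for all protein-coding genes, the 9 genes that resolve R-loops and the groups of the list of 43, in the HEPA1-6 list (orange) and the liver list (blue). All protein-coding genes stand at 42% and 29.7%, and each group lies to the right of them in both lists; groups hold 4 to 10 genes and were not tested.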

How the data were processed

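R-loops were mapped by S9.6 immunoprecipitation in HEPA1-6 cells and mouse liver. The deposited lists, 1 per source, give position, name, score and strand of each peak. Per the submitters' processing notes, CASAVA 1.8.2, cutadapt, Bowtie2, bedtools, SAMtools and MACS2 were used with build mm10, and the peak names in the deposited lists name merged immunoprecipitates and an input. The score deposited by the authors has no stated scale. Depth, thresholds and the libraries merged are not given in the sources used here, and single-library precision is unknown.

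Here peaks were intersected with RefSeq gene bodies and promoter windows (GRCm38.p6, the same assembly as mm10) in Python 3.11.15 with pandas 2.3.3, with coordinates printed 1-based. The search for peaks in gene bodies was tested on simulated peaks planted at the middle of 200 genes, all of which were found. The flanks, the overlap between the lists and the covered bases were not part of that test. Promoter orientation was checked on 1685 overlapping windows of opposite strands, all with the same bases. No p-value was computed, as there is 1 list per source. Wilson intervals cover counting error only. Length classes were under 10 kb, 10 to 30 kb, 30 to 100 kb and longer. Named from the list of 43 were genes with a peak in neither list or in liver only (none) and the 3 top scores per list. The genes and lists were chosen with earlier results of these data known; the hexamer search and the share of genes with a peak in the higher-scoring 50% of each list were added after the data were seen. Alternatives changed the flank, the overlap, the score limit, the list length, the strand requirement and peaks over neighbouring genes. 1 gene of the list of 43 is counted but its own values are not reported here.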

Additional observations from a re-analysis of the deposited data

How the results depend on the processing

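Of 48 recomputed totals over the genes that resolve R-loops and the list of 43, 43 stayed within 1.5 times the reported count and 5 moved. The 40 HEPA1-6 peaks became 25 in the higher-scoring 50% of the list and 25 in a list shortened to the length of the liver list, as both settings hold fewer peaks. In the higher-scoring 50%, 4 genes held a liver peak in place of 7. With an overlap of 50% of both peaks, 6 HEPA1-6 and 6 liver peaks were shared in place of 14 and 15. Among counts for single genes, 110 of 126 stayed within 1.5 times. Peaks with a strand only gave the same counts because every peak at these genes has a strand. Shortening to the length of the liver list left the liver list itself unchanged, so the liver counts could not move there. The counts of Rnaseh2b, which held no peak, could not fall under any setting. Such cases are included in the 43 and the 110, which therefore overstate how far the counts were put to the test. No paired analysis was possible because the data are 1 merged list per source, and for the same reason no replicate could be left out. A peak missing from the shorter liver list can lie below its threshold.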

Other observations

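Among the HEPA1-6 peak edges within promoter windows, the HindIII hexamer was found within 10 bp of 151, EcoRI of 101, XbaI of 86, BsrGI of 60 and SspI of 58. In the liver list these counts were 103, 66, 80, 54 and 32. An edge can lie near more than 1 hexamer.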
